A study of Mus musculus with 4 samples.

Results

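Nodal and activin are secreted ligands of the TGF-beta family. Both bind a type II receptor, which recruits and phosphorylates a type I receptor, and the type I receptor then passes the signal to SMAD2 and SMAD3. Nodal also needs a coreceptor of the EGF-CFC family at the membrane, whereas activin does not. In ES cells the pathway is known for its part in the choice between self-renewal and differentiation. The genes described here are 6 members of this system: Cfc1, the EGF-CFC coreceptor also called Cryptic; Inhbb, the beta B subunit of activin and inhibin; the type I receptors Acvr1 and Acvr1b; and the type II receptors Acvr2a and Acvr2b. Their 8 probes were found through tables that pair array probes with gene symbols, and the 6 genes are among 25030 genes with a processed value on the array. Cfc1 and Inhbb were chosen by their log2 fold changes on these same arrays, where they were among the largest of the named genes, so their changes are given as descriptions, and the receptors were taken as the other members with a probe in those tables.

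RNA was taken from B6R(5) mouse ES cells, a male C57BL/6 line grown without feeders on gelatin. The cells received an inhibitor or the solvent 24 hr after plating and were harvested 48 hr later, always with 0.2% DMSO. The FGFR inhibitor was PD173074 (100 μM), the MEK inhibitor was PD98059 (25 μM) and the GSK inhibitor was BIO (2 μM), while the DMSO control received solvent alone. The doses are those of the study's Methods, and a supplementary list prints the same numbers in mM, so their unit is not settled. Each of the 4 conditions was measured on 1 array of the same slide, with ES cell RNA in Cy3 and, in Cy5, a common reference that the labels describe as RNA pooled from 11 mouse cell lines. The study's Methods, in a passage on tissue samples, describe a reference with RNA of MC1 cells mixed in. Their later passage on the inhibitors says only that RNA was processed as described. Whether these arrays used that mixture is not settled, so a ratio to the reference has this limit. With 1 array for each condition and no exchange of dyes, no difference below has a replicate check and none was tested. A change in the RNA of every cell and a change in the share of cells that express a gene cannot be told apart in such samples. Precision is limited by the number of arrays. Any unequal response of the dyes at a probe remains in its ratio to the reference. It drops out when arrays are compared only where it is the same at each signal level, which was not tested.

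The scanner software flagged Cy3 as well above background for 67.6% to 69.6% of the 25030 genes, and no spot was saturated. Of 19 ES cell markers, 3 had a probe in the tables, and the log2 ratio of ES cell to reference RNA lay between 2.04 and 4.01 for Tcfcp2l1, Prdm14 and Gbx2 on the 4 arrays. These markers were not level between arrays. With FGFR inhibitor, where Cfc1 stood apart, the log2 fold change was -0.98 for Gbx2 (robust SD 0.26), 0.60 for Prdm14 (robust SD 0.22) and 0.42 for Tcfcp2l1 (robust SD 0.20). With MEK and GSK inhibitor it was -0.22 and -0.22 for Gbx2, 0.10 and -0.16 for Prdm14, and 0.40 and 0.41 for Tcfcp2l1. These marker values depended on the processing. With Cy3 alone, Tcfcp2l1 was 1.098 with GSK inhibitor, past 2-fold, and Prdm14 was 0.0053. In the processed signals Prdm14 was -0.07 with MEK inhibitor. Under FGFR inhibitor, Gbx2 was -2.34 with Cy3 alone and -0.19 in the processed signals. Its sign was negative with each inhibitor under every way of processing. This is opposite to the study, which states that each of the inhibitors upregulated Gbx2. The part of these markers in the results below was not tested. Of the other lineages, the endoderm gene Sox17 had log2 ratios of 1.73 to 2.21, and the fibroblast gene Col3a1 had log2 ratios of -7.44 to -7.19. With FGFR, MEK and GSK inhibitor the log2 fold change of Sox17 was -0.17, 0.11 and -0.37 (robust SD 0.25, 0.19 and 0.30). In the processed signals it was -0.57, -0.19 and -0.65. That of Col3a1 was -0.16, -0.25 and -0.07 (robust SD 0.25, 0.19 and 0.31). Most other markers, Pou5f1 and Nanog included, were not analysed here.

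The scanner files give a 60-base probe for each gene without a genome position, so the probes are not placed on exons or UTRs here. A stretch of 30 bases is shown for the genes that stood apart and for the receptors measured by a pair of probes, 5′ to 3′ as the files give it. Capitals mark the hexamers AATAAA and ATTAAA, which are the usual polyadenylation signals near the end of a transcript.
Cfc1 (Z00063770-1): ctcatgctgtacAATAAAgaggcttaatgg
Inhbb (Z00002490-1): actgatctagttgcatggttagtcagaaac
Acvr1 (Z00075452-1): cggaattatccattacgtgcatttaaactc
Acvr1, second probe (Z00031077-1): ttccctagacaaATTAAAaactgactgttg
Acvr2a (Z00075284-1): gtaagtgcagaatgggcagataaaaagatt
Acvr2a, second probe (Z00006928-1): agtagcatcttgATTAAAcatcatttacct
One of these hexamers was found in 3 of the 8 member probes as given and in 0 on the opposite strand. Over all 42006 probes of the array, 9.90% held one as given and 5.53% on the opposite strand. A match is a description of the probe only.

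Cfc1 was the member that stood apart with FGFR inhibitor. Its Cy3 signal, as the mean of the spot minus its local background, was 32.9 in the DMSO control and 255 with FGFR inhibitor, and it was 35.5 under the MEK and 32.3 under the GSK inhibitor. The signal was thus high on the FGFR inhibitor array and close to the control on the other 2 inhibitor arrays, and it was 7.76 times the control before any normalization between arrays. The 153 negative control spots bear on the low values, since their highest net Cy3 signal lay between 13.3 and 19.7 on the 4 arrays, and 0 of them reached the Cfc1 signal on any array. The log2 ratio of Cfc1 to the reference was 0.65 in the control, 2.69 with FGFR inhibitor, 0.67 under the MEK and 0.53 under the GSK inhibitor. The level of this ratio depended on the processing, since in the scanner software's processed signals it was 4.28, 5.16, 4.52 and 2.88 in the same order, and with a normexp offset of 16 it was 1.28 in the control. The FGFR inhibitor array was highest each time. As reported, the log2 fold change with FGFR inhibitor was 2.04 (4.12-fold), where genes of similar Cy3 signal had a robust SD of 0.25 between those arrays. Of the genes compared, 9 had a higher value.

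On the other arrays Cfc1 was close to the control. Its log2 fold change was 0.03 with MEK inhibitor (robust SD 0.16) and -0.12 with GSK inhibitor (robust SD 0.17). In the order of the log2 ratios, FGFR inhibitor stood first, followed by MEK inhibitor, control and GSK inhibitor, and the last 3 did not differ from each other by more than the robust SD of genes of similar signal. The FGFR inhibitor value lay 2.07 above the mean of the other 3 arrays, whose values ran from 0.53 to 0.67. Over the 4 arrays the range of Cfc1 was 2.16 on the log2 scale, against a median of 0.28 for the 16229 genes whose Cy3 carried that flag on all 4 arrays, and 24 of these genes had a larger range.

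The reference signal of Cfc1 was weak. Its net Cy5 signal was 3.08 in the control, 22.0 with FGFR inhibitor, 3.79 under MEK inhibitor and 8.51 under GSK inhibitor, and Cy5 was well above background only on the FGFR inhibitor array. Although each array received the same reference RNA, the Cy5 value was highest where the Cy3 signal of Cfc1 was highest. The SD of log2 Cy5 over the 4 arrays was 0.17 for Cfc1 and had a median of 0.06 for genes of similar Cy5 signal. With FGFR inhibitor net Cy5 was 7.15 times the control, beside 7.76 times for net Cy3. The ratio of these net signals therefore changed little. The ratio reported here includes an offset in both channels. With that offset and quantile normalization, log2 Cy5 was 5.94 in the control and 6.30 with FGFR inhibitor. The part of this Cy5 difference in the ratio was not tested. With Cy3 alone, which leaves the reference out, Cfc1 was 1.82 higher with FGFR inhibitor on the log2 scale. In the scanner software's processed signals the difference was 0.88, below 2-fold, and in those same signals it was -1.40 with GSK inhibitor, where Cy5 was not well above background on either array.

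**Figure D1:**
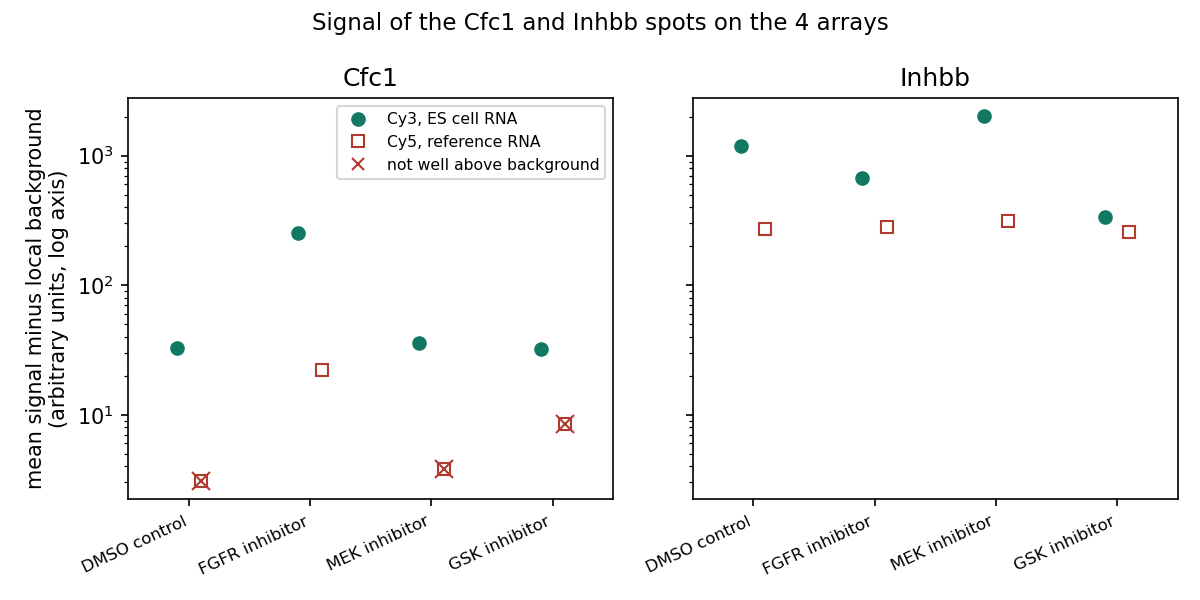
Net signal (mean of the spot minus local background, arbitrary units, log axis) of the Cfc1 and Inhbb spots on the 4 arrays, with Cy3 for ES cell RNA as filled circles, Cy5 for reference RNA as open squares and a cross where Cy5 was not well above background. Cy3 of Cfc1 is 255 with FGFR inhibitor and 32.3 to 35.5 elsewhere, and Cy3 of Inhbb runs from 335 with GSK inhibitor to 2016 with MEK inhibitor over a Cy5 of 260 to 313.

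Inhbb, the ligand subunit, had its lowest level with GSK inhibitor. Net Cy3 signal was 1182 in the DMSO control, 676 with FGFR inhibitor, 2016 under the MEK and 335 under the GSK inhibitor. It was lower than in the control with FGFR and GSK inhibitor and higher with MEK inhibitor. The reference signal at the same spot was steady, with a net Cy5 signal of 271, 281, 313 and 260 in the same order and an SD of log2 Cy5 of 0.07, beside a median of 0.06 for genes of similar Cy5 signal. The log2 ratio to the reference was 2.68 in the control, 1.82 with FGFR inhibitor, 3.03 under MEK inhibitor and 1.00 under GSK inhibitor. This corresponds to between 2.00 and 8.18 times the reference level over the 4 arrays. The net signals are not normalized between arrays. With MEK inhibitor, net Cy3 was above the control at every member probe, from 1.08 times for Cfc1 to 1.71 times for Inhbb.

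The log2 fold change of Inhbb was -1.68 with GSK inhibitor (3.21-fold lower, robust SD 0.29), and 21 of the genes compared had a lower value. With FGFR inhibitor it was -0.86 (1.82-fold lower, robust SD 0.26), which did not reach 2-fold, and 2.26% of genes had a change at least as large. With MEK inhibitor it was 0.35 (1.28-fold higher, robust SD 0.15), and 6.10% of genes had a change at least as large. Each neighbouring pair in the order of MEK inhibitor, control, FGFR inhibitor and GSK inhibitor differed by more than the robust SD of genes of similar signal, with a gap of 0.82 between the FGFR and GSK inhibitor arrays. The widest gap, between the MEK and GSK inhibitor arrays, was 2.04 on the log2 scale. A larger range over the 4 arrays was found for 38 of the 16229 genes. Inhbb on the GSK inhibitor array lay 1.51 below the mean of the other 3 arrays, which ran from 1.82 to 3.03.

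**Figure D2:**
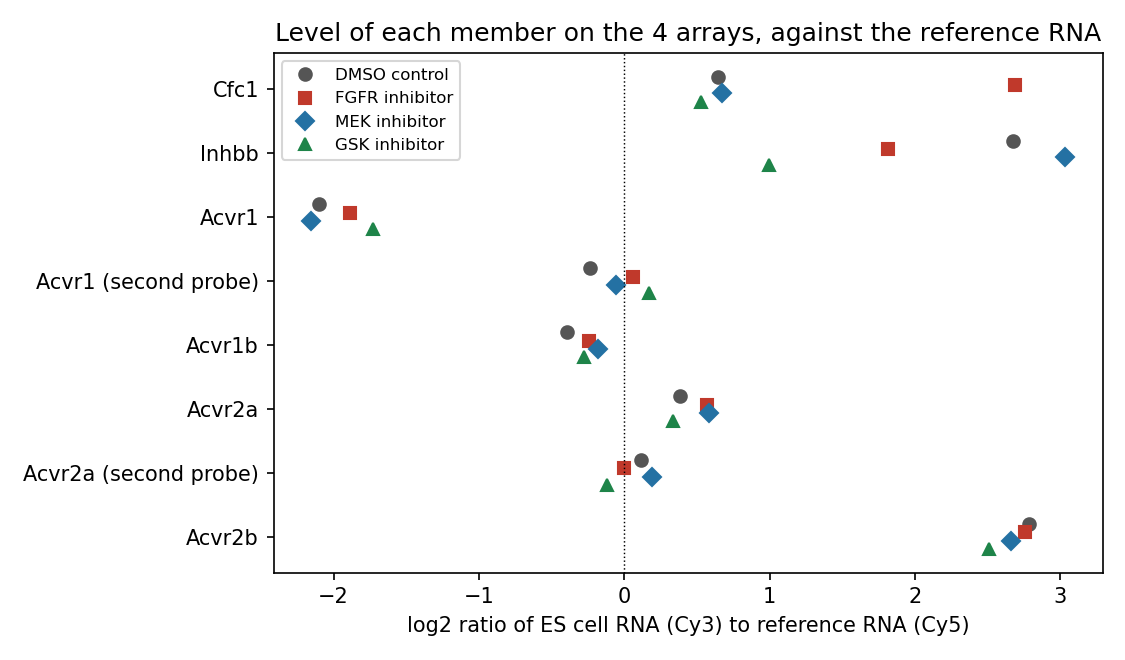
Log2 ratio of ES cell RNA (Cy3) to reference RNA (Cy5) for the 8 probes of the 6 members, with 1 point for each of the 4 arrays and a dotted line where both RNAs are equal. Cfc1 stands apart on the FGFR inhibitor array at 2.69, Inhbb spreads from 1.00 to 3.03, and the points of each receptor probe lie within 0.42 of each other.

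The type I receptors Acvr1 and Acvr1b stayed below 2-fold with each inhibitor. Acvr1b, also called ALK4, is the type I receptor that carries Nodal and activin signals. Its net Cy3 signal was 1052 in the control, 1366 with FGFR inhibitor, 1513 under MEK inhibitor and 1238 under GSK inhibitor, and its log2 ratios to the reference were -0.40, -0.24, -0.18 and -0.28 in the same order. The control was the lowest of the 4 values and the whole range was 0.21. The log2 fold changes of Acvr1b were 0.15, 0.21 and 0.12 with FGFR, MEK and GSK inhibitor. With MEK inhibitor 21.1% of genes had a change at least as large, and the value of Acvr1b exceeded the robust SD of 0.15. No neighbouring pair of arrays in the order of its log2 ratios differed by more than that spread. Its reference signal was the steadiest of the 8 probes, with an SD of log2 Cy5 of 0.02.

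Acvr1, also called ALK2, is mostly known as a type I receptor for BMPs and can also bind activin without passing on its usual signal. It was the only member whose main probe was far below the reference, by between 3.32 and 4.45 times. The log2 ratios to the reference were -2.10 in the control, -1.89 with FGFR inhibitor, -2.15 under MEK inhibitor and -1.73 under GSK inhibitor, from net Cy3 signals of 895, 1215, 1085 and 1458. The log2 fold changes were 0.21, -0.05 and 0.37, and only that with GSK inhibitor was larger than its robust SD, 0.28. With GSK inhibitor 17.2% of genes had a change at least as large. The second probe of Acvr1 gave log2 fold changes of 0.30, 0.18 and 0.40, each larger than its robust SD of 0.19, 0.16 and 0.23. For this probe 19.8%, 29.0% and 14.7% of genes had a change at least as large. Both probes had their highest log2 ratio on the GSK inhibitor array. They differed in their ratio to the reference, since the second probe lay between -0.24 and 0.17, and in the sign of the small value with MEK inhibitor. With median centring both probes were positive with MEK inhibitor, at 0.14 for the main probe and 0.21 for the second. Net Cy3 signal of the second probe was only 35.7 to 53.6, although the software flagged it as well above background each time.

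The type II receptors also stayed below 2-fold. Acvr2b binds activins and Nodal with high affinity, and its log2 ratios to the reference were 2.79 in the control, 2.76 with FGFR inhibitor, 2.66 under MEK inhibitor and 2.51 under GSK inhibitor. This corresponds to 5.69 to 6.91 times the reference level, and the processed signals gave 8.36 to 10.5 times. Its log2 fold changes were -0.03, -0.13 and -0.28 with FGFR, MEK and GSK inhibitor, each within the robust SD of 0.26, 0.16 and 0.28. The net Cy3 signal of Acvr2b was 975 in the control and 1065, 1233 and 902 on the inhibitor arrays. No pair of arrays differed by more than the spread of genes of similar signal.

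Acvr2a, the other type II receptor for activins, was dim on the array. Net Cy3 signals of its main probe were 62.7 in the control, 78.6 with FGFR inhibitor, 90.0 under MEK inhibitor and 61.2 under GSK inhibitor, and the log2 ratios were 0.39, 0.57, 0.59 and 0.34. The log2 fold changes of this probe were 0.18, 0.20 and -0.05, and only that with MEK inhibitor was larger than its robust SD, 0.18. With MEK inhibitor 23.75% of genes had a change at least as large. The second probe of Acvr2a had log2 fold changes of -0.12, 0.08 and -0.23, with opposite signs at the pair of probes for FGFR inhibitor. With Cy3 alone both probes were positive there, at 0.10 for the main probe and 0.08 for the second. For the second probe, only the value with GSK inhibitor was larger than its robust SD, at -0.232 against 0.227. A change at least as large was found for 34.7% of genes. On both probes the MEK inhibitor array was highest and the GSK inhibitor array lowest, and this difference was 0.25 at the main probe (robust SD 0.24) and 0.31 at the second probe (robust SD 0.19).

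**Figure D3:**
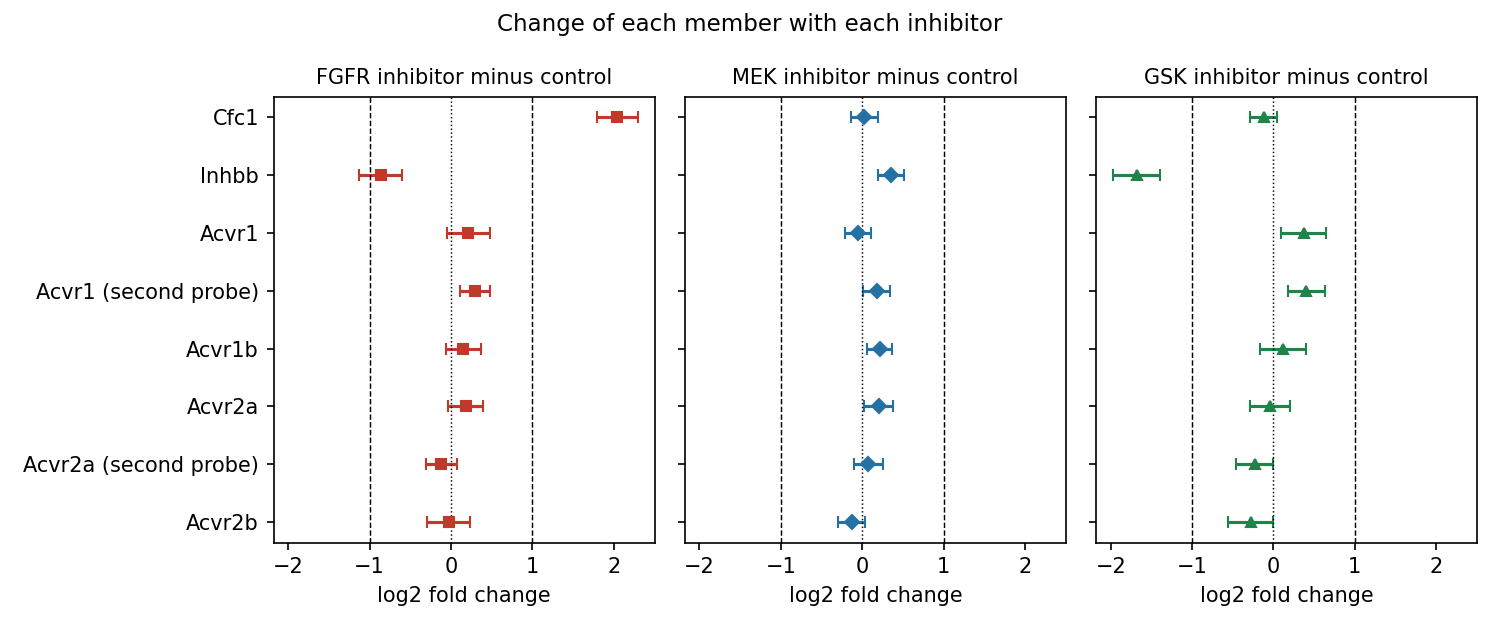
Log2 fold change of the 8 probes with each inhibitor relative to the DMSO control, with bars of 1 robust SD of the log2 fold change among genes of similar Cy3 signal, dashed lines at 2-fold and a dotted line at 0. Cfc1 with FGFR inhibitor (2.04) and Inhbb with GSK inhibitor (-1.68) lie past the dashed lines, and the receptor probes lie between -0.28 and 0.40.

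**Figure D4:**
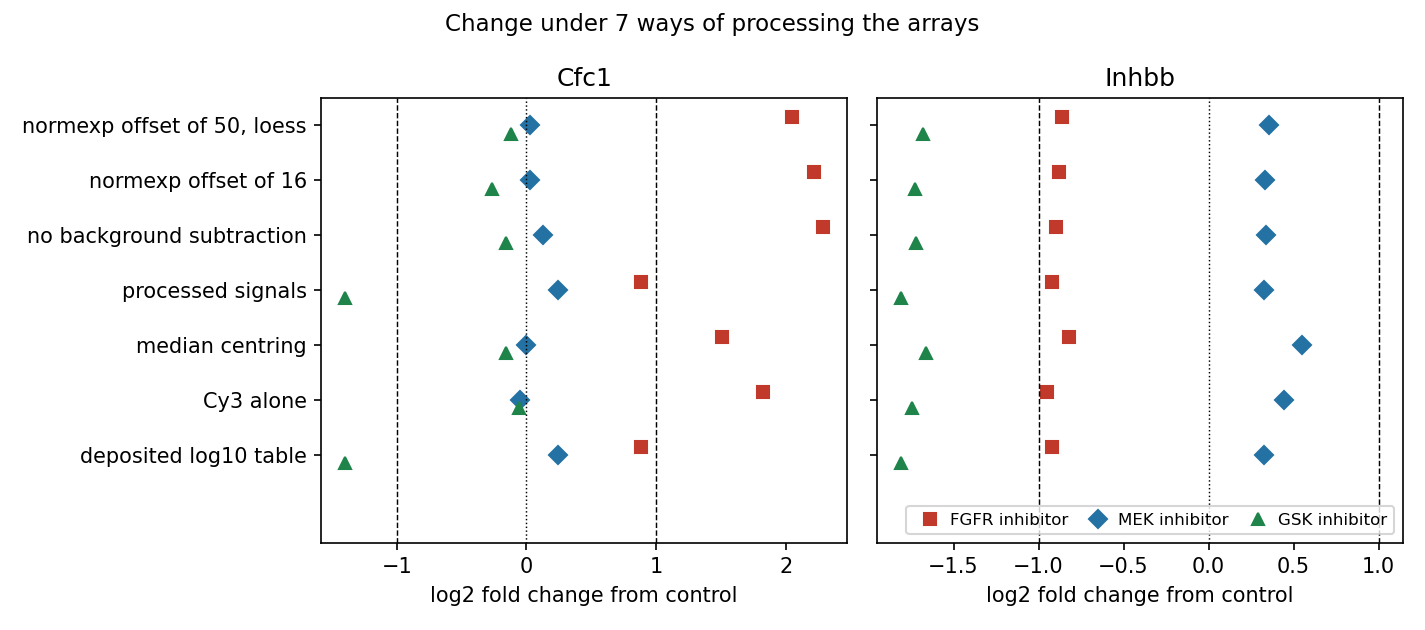
Log2 fold change of Cfc1 and Inhbb with each inhibitor under 7 ways of processing the arrays, with dashed lines at 2-fold and a dotted line at 0. Inhbb with GSK inhibitor stays between -1.81 and -1.66, while Cfc1 with FGFR inhibitor is 2.04 as reported and 0.88 in the processed signals and the deposited log10 table.

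Genes were counted at 2-fold or more where both arrays had Cy3 over background by the software's flag. By this count 1 of 6 members was higher with FGFR inhibitor (Cfc1) and 0 were lower, where 1.39% of 16794 genes passed in either direction. With MEK inhibitor 0 of 6 members passed, where 0.0832% of 16834 genes did. With GSK inhibitor 1 of 6 was lower (Inhbb) and 0 were higher, where 1.43% of 16465 genes passed. These counts follow from the choice of Cfc1 and Inhbb and nothing is read from them. All 6 members passed the filter on background in each comparison. The median log2 fold change of the members was 0.17, 0.11 and -0.08 with FGFR, MEK and GSK inhibitor, and that of all genes compared was -0.02, -0.01 and -0.0031. The 3 comparisons share the control array.

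**Figure D5:**
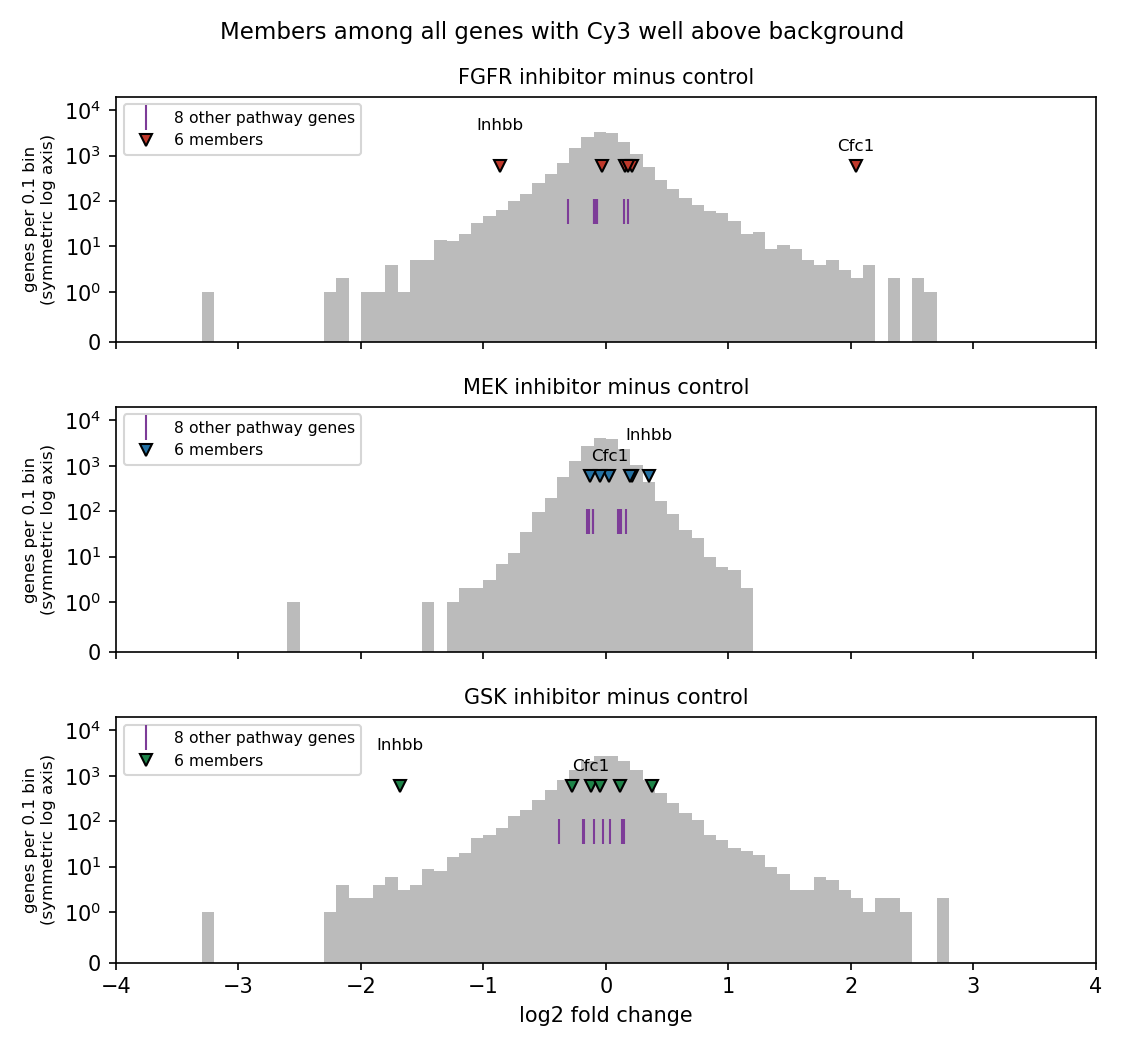
Number of genes per bin of 0.1 in log2 fold change (symmetric log axis) for each inhibitor against the DMSO control, over genes that passed the background flag in Cy3 on both arrays, with the 6 members as triangles and 8 other pathway genes as bars at arbitrary heights. Cfc1 with FGFR inhibitor and Inhbb with GSK inhibitor lie in the tails, and the 8 other genes lie between -0.38 and 0.18.

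Of 49 other genes of the TGF-beta pathway that were listed, 9 had a probe in the tables, and 8 of them had Cy3 well above background on every array. At 2-fold, 0 of these 8 were higher and 0 lower with any of the 3 inhibitors, and their median log2 fold change was -0.08, -0.01 and -0.06 with FGFR, MEK and GSK inhibitor. Among ligands, Inha, the alpha subunit that pairs with Inhbb to form inhibin B, had log2 fold changes of -0.10, 0.10 and -0.18, which did not exceed its robust SD in any comparison. Gdf2, a BMP ligand, had values of 0.15, 0.13 and -0.02. Mstn, which encodes myostatin, was not well above background on any array.

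Among the remaining genes, Foxh1, the nuclear partner of SMAD2 in Nodal signaling, had log2 fold changes of -0.08, -0.11 and -0.10 with FGFR, MEK and GSK inhibitor, from a net Cy3 signal of 840 in the control. Ltbp3, which binds latent TGF-beta, had the largest changes of the 8 at -0.31 and -0.38 with FGFR and GSK inhibitor, with robust SDs of 0.24 and 0.30. The receptors Acvrl1 and Bmpr2, the proprotein convertase Pcsk7 and Tgfbrap1, a receptor-associated protein, lay between -0.18 and 0.18. Of these, only Tgfbrap1 with MEK inhibitor was beyond its robust SD, at 0.168 against 0.167.

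The genes whose pattern was nearest to a member were sought among 4244 genes with a symbol, by the Euclidean distance between the 3 log2 fold changes. Nearest to Cfc1 were 1190002H23Rik (distance 0.60), Agpat9 (0.60) and Dner (0.85), with log2 fold changes of 1.58, 1.47 and 1.41 with FGFR inhibitor. Each of these was below the value of Cfc1. Nearest to Inhbb were Actn3 (distance 0.62), Niban (0.75) and 1190005I06Rik (0.92), with log2 fold changes of -1.86, -1.07 and -0.94 with GSK inhibitor. The distance rests on 3 values that share 1 control array.

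For each member, 250 bases before a transcript start were read from a RefSeq promoter table (GRCm38.p6), which held all 6 members, and the dinucleotide CG was counted in them. For Acvr2b that start lies inside the annotated gene, so its window is not upstream of the whole gene. Cfc1 had 2 CG and a GC content of 47.6%, Inhbb had 21 CG and 68.0%, Acvr2b had 24 CG and 72.8%, and the other 3 receptors had 42 to 49 CG and 78.8% to 85.6%. The median over 27025 promoters was 6 CG and a GC content of 52.0%, and 19.4% of promoters had fewer CG than Cfc1. The members that stood apart thus lie on different sides of the median promoter. The letters TATAA, searched on both strands, were in 0 of the 6 windows and in 23.5% of all promoters.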

How the data were processed

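The authors deposited Agilent Feature Extraction output for 4 arrays, with mean spot intensity and local background in Cy3 and Cy5 and processed signals after the software's own background and dye correction. A second deposited file holds log10 values of 25030 probes, and each deposited log10 value equals log10 of processed Cy3 over Cy5 plus the mean log10 Cy5, within 0.001. Column medians of that table were 2.25 to 2.26.

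Background correction of mean intensity used normexp (limma 3.58.1, R 4.3.3; offset 50). Log2 ratios of Cy3 to Cy5 were then adjusted within each array by loess, with control spots left out. The offset draws changes of a dim signal toward 0 within each channel. In a ratio it can act either way where Cy5 is also dim. For Cfc1 with FGFR inhibitor the log2 fold change was 2.04 with the offset of 50, 2.22 with an offset of 16 and 0.88 in the processed signals. The 7 probes printed 5 times had a median SD of 0.07 in log2 ratio between spots. Fold changes are differences in log2 ratio, inhibitor minus control. The robust SD (scaled median absolute deviation) was taken in 20 groups of genes by Cy3 signal, and includes both true changes and error. The code was tested on simulated data without a change in Cy5, and recovery of the size of a change was required only at bright probes. That test does not cover a dim probe such as that of Cfc1.

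Symbols came from supplementary tables held in part. Named genes are all members, all genes of the pathway list with a probe, for Cfc1 and Inhbb the 3 nearest genes, and the cell type markers with a probe. Members and lists were chosen with earlier results of these data known. Other settings tried were the processed signals, the deposited table, Cy3 alone with quantile normalization, an offset of 16, signals without background subtraction, median centring, other filters on background, and thresholds of 1.5-fold and 4-fold. Counting and figures used Python 3.11.15, numpy 2.4.6, pandas 2.3.3 and matplotlib 3.10.9.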

Additional observations from a re-analysis of the deposited data

How the results depend on the processing

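The count of members past 2-fold with FGFR inhibitor was 1. It was 0 in the processed signals, 0 in the deposited log10 table and 0 with both channels required to be well above background, since Cy5 of Cfc1 was not, and it was 2 at a threshold of 1.5-fold. With GSK inhibitor the count was 1, and it was 2 in the processed signals, as also in the log10 table, where Cfc1 joined Inhbb, and 0 at 4-fold. With MEK inhibitor it was 0 under each alternative. Over the 6 ways of processing other than the one reported, the log2 fold change of Inhbb with GSK inhibitor ran from -1.81 to -1.66, and that of Cfc1 with FGFR inhibitor ran from 0.88 to 2.29. Of 24 fold changes of the 8 probes, 6 turned in direction under an alternative, and the largest of these was 0.13 in size. Ratios to the reference also moved. In the DMSO control the ratio of Cfc1 moved by 12.4 times and that of Acvr2b by 1.52 times in the processed signals, and that of Cfc1 by 1.55 times with an offset of 16. Median centring moved the median of all genes with MEK inhibitor to 0.10. No paired analysis was possible because there was only 1 array per condition. No array could be left out either, and all 4 arrays lay on 1 slide, so no slide block was run. Cy5 near background limits the ratio of Cfc1.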
